A study of Mus musculus with 2 samples.

Results

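Bcl11a, Bcl11b, Fezf2, Sox5, Foxp1, Foxp2, Myt1, Myt1l, Nfia and Nfib encode transcription factors through which newborn neurons of the forebrain take on their identity. The 10 genes were taken by symbol, through the Ensembl identifiers of the count table, and are 10 of its 19202 genes. Their values were compared in telencephalic tissue of mouse embryos of the C57BL/6 background at E12. The H2AZcKO embryos are labelled as a conditional knockout of the histone variant H2A.Z, and the H2AZfl/fl embryos, their controls, carry the floxed allele. The sources used here name neither a Cre driver nor the deleted exons, so which cells of the tissue were targeted cannot be read from them, and the protocol speaks of cerebral cortex where the tissue label says telencephalon. The series text names 3 replicates, while the table holds 1 column of counts per genotype, called a library here. None of the differences therefore has a replicate check, no test of the genotype was possible, and the intervals given are 95% intervals of counting error only.

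The cerebral cortex is built by progenitors that first make deep-layer neurons and later upper-layer neurons, and subtype identity is set by factors that often repress one another. Fezf2 and its downstream factor Bcl11b (Ctip2) specify subcerebral projection neurons, Sox5 and Bcl11a (Ctip1) shape corticothalamic, subplate and other deep-layer identities, and Foxp1 and Foxp2 mark cortical and striatal projection neurons. Myt1 and Myt1l are zinc finger factors of the neuronal lineage, of which Myt1l is known for repressing non-neuronal genes, and Nfia and Nfib promote the maturation of progenitors, gliogenesis and deep-layer development. H2A.Z is a replacement histone found at nucleosomes near promoters, and the series title links it to Setd2, the enzyme that trimethylates lysine 36 of histone H3.

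The libraries held 8839840 counts in H2AZcKO and 8891198 in H2AZfl/fl. H2afz, the targeted gene, had 1664 counts against 2605, a ratio of 0.661 (0.621 to 0.703), so its transcript was lower in the H2AZcKO library but still present. With the deleted exons unknown, its gene count may include reads from outside the deletion. H2afv, its paralog, had 2752 counts against 2270, a ratio of 1.254 (1.19 to 1.33). Levels are counts per 1000000 counts (CPM) after scaling of the libraries by trimmed mean of M values (TMM), ratios are H2AZcKO over H2AZfl/fl, and a log2 ratio compares log2(CPM + 1), so that differences of genes at low levels come out too small. Of all genes, 14586 reached 1 CPM in the higher library and are the background below, and all 10 factors are among them. The libraries also differed in sex-linked transcripts, with Xist at 6384 counts against 200 and the Y-linked Eif2s3y at 1 against 630. None of the 10 genes lies on a sex chromosome, but the difference in sex-linked transcripts runs with the genotype. Effects of sex on genes of the other chromosomes therefore cannot be told apart from those of the genotype. In bulk tissue, fewer cells of a type and less RNA per cell cannot be told apart.

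The factors include 4 pairs of paralogs, and a read from a stretch shared by a pair could be counted for either gene. The sequences below show, for 3 of the pairs, the longest run that their coding sequences share exactly, in capitals, with up to 15 coding bases on each side in lower case, 5′ to 3′ on the coding strand, from GENCODE M21 transcripts on GRCm38. No longer stretch is identical within the coding sequences of these pairs.
Bcl11a: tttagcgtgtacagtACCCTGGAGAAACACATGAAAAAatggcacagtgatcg
Bcl11b: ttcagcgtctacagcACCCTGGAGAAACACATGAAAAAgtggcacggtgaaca
Foxp1: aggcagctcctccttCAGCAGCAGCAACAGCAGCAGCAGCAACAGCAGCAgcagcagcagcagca
Foxp2: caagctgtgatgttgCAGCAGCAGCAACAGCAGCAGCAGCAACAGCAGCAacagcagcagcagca
Nfia: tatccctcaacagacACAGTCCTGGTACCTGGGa
Nfib: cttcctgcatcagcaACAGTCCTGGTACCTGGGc

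The Bcl11 run is 23 bases long and lies at chr11:24165098-24165120 on the plus strand in Bcl11a and at chr12:107915461-107915483 on the minus strand in Bcl11b. The run of Foxp1 and Foxp2, 1 of 2 of that length, is 35 bases of a CAG and CAA repeat, at chr6:99075981-99076015 on the minus strand in Foxp1, and in Foxp2 it is split by an intron within chr6:15376821-15377979 on the plus strand. The Nfia and Nfib run is 18 bases and crosses an exon junction in both genes, within chr4:98081813-98111231 on the plus strand and chr4:82296798-82320477 on the minus strand. None of the 4 pairs shared a stretch of 50 coding bases (0 in each pair). Neither the read length nor the treatment of reads with several matches is known from the sources used here.

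**Figure D1:**
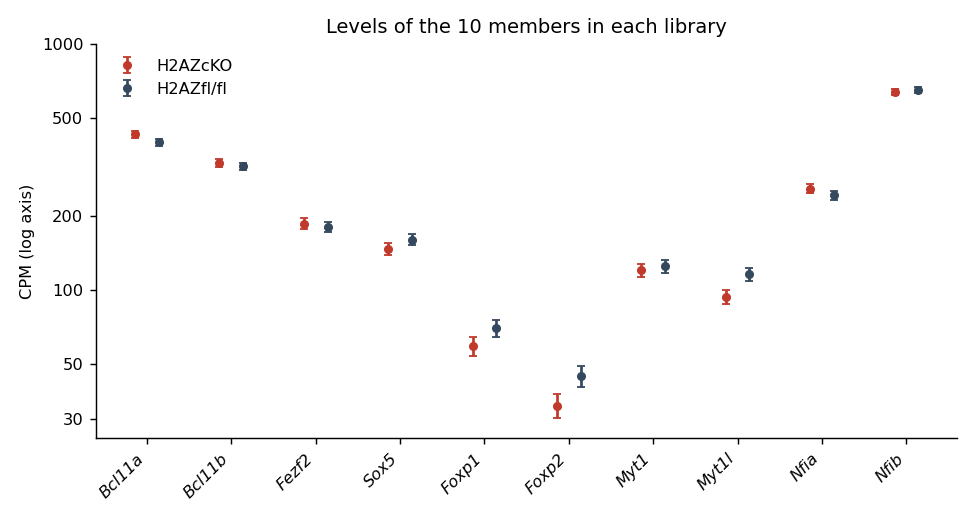
Level of each of the 10 factors in CPM (log axis) in the H2AZcKO library (red, left) and the H2AZfl/fl library (dark blue, right), with exact Poisson 95% intervals of the counts. Foxp1, Foxp2 and Myt1l sit lower in H2AZcKO with intervals apart from those of H2AZfl/fl, while Nfib is the most abundant in both, at 638 and 652 CPM.

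The factors were abundant as a group, with 20022 counts in H2AZcKO and 20817 in H2AZfl/fl, or a summed 2297 and 2309 CPM. Per length, as CPM divided by the kilobases of merged exons (RPKM), Fezf2 stood highest, at 61.2 RPKM in H2AZcKO and 59.4 RPKM in H2AZfl/fl. Nfib followed at 42.6 and 43.6 RPKM, Bcl11b at 40.7 and 39.2 RPKM, Bcl11a at 32.7 and 30.2 RPKM and Nfia at 23.7 and 22.3 RPKM. The lower part of the range held Myt1 at 16.7 RPKM in H2AZcKO and 17.4 RPKM in H2AZfl/fl, Sox5 at 10.2 and 11.1 RPKM, Myt1l at 6.69 and 8.30 RPKM, Foxp1 at 4.31 and 5.10 RPKM and Foxp2 at 2.08 and 2.73 RPKM. The order was the same in both libraries, and each neighbour in it differed beyond counting error on this length. With the length of the longest transcript instead, Bcl11a moved up to 71.9 RPKM in H2AZcKO and 66.5 RPKM in H2AZfl/fl, beside Nfib at 69.9 and 71.5 RPKM, and Myt1 and Sox5 no longer differed beyond counting error in either library. With that length Bcl11a and Nfib in H2AZcKO, and Fezf2 and Nfib in H2AZfl/fl, were not apart beyond counting error either.

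The factors at the head of subcerebral and deep-layer identity were close to equal in the 2 libraries. Fezf2 (ENSMUSG00000021743, chr14:12341892-12345865 in the deposited positions) had 1625 counts in H2AZcKO and 1631 in H2AZfl/fl. That is 186 CPM against 181 CPM, with a ratio of 1.03 (0.962 to 1.105), whose interval holds 1. Bcl11b (ENSMUSG00000048251, chr12:107910403-108003602), the zinc finger factor downstream of Fezf2, had 2875 counts in H2AZcKO and 2869 in H2AZfl/fl. At 330 CPM against 318 CPM its ratio was 1.04 (0.984 to 1.09), also not apart beyond counting error. Bcl11a (ENSMUSG00000000861, chr11:24078056-24174123), which like Bcl11b is a subunit of neural BAF remodelling complexes, had 3754 counts in H2AZcKO and 3591 in H2AZfl/fl. Its 431 CPM against 398 CPM gave a ratio of 1.08 (1.03 to 1.13), the highest of the 10. Bcl11a made up 56.6% of the counts of the Bcl11 pair in H2AZcKO (exact binomial 95% interval 55.4 to 57.8) and 55.6% in H2AZfl/fl (54.4 to 56.8), so the balance of the pair, which does not depend on scaling, was not apart beyond counting error.

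Sox5, an HMG box factor that times the production of corticofugal neuron subtypes, was slightly lower in H2AZcKO. It lies at chr6:143828425-144781977 (ENSMUSG00000041540) and had 1279 counts in H2AZcKO and 1444 in H2AZfl/fl, or 147 CPM against 160 CPM. The ratio was 0.916 (0.849 to 0.989), or 1.09-fold lower. Its closest relatives in the SoxD family, Sox6 and Sox13, stood at 0.985 (0.894 to 1.09) and 0.944 (0.827 to 1.08), both with intervals that hold 1. The share of Sox5 in the counts of the 3 SoxD genes was 50.6% in H2AZcKO (48.6 to 52.5) and 52.0% in H2AZfl/fl (50.1 to 53.9), which overlap.

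The forkhead factors Foxp1 and Foxp2 were lower in H2AZcKO, and Foxp2 had the lowest ratio of the 10. Foxp2 (ENSMUSG00000029563, chr6:14901349-15441977), a factor of deep-layer and striatal neurons, had 296 counts in H2AZcKO and 403 in H2AZfl/fl. Its 34.0 CPM against 44.7 CPM gave a ratio of 0.760 (0.652 to 0.885), or 1.32-fold lower. Foxp1 (ENSMUSG00000030067, chr6:98925338-99522721), expressed in cortical and striatal projection neurons, had 516 counts in H2AZcKO and 632 in H2AZfl/fl. Its level was 59.2 CPM against 70.1 CPM and its ratio 0.845 (0.750 to 0.9503), or 1.18-fold lower. Both intervals lie below 1, and the ratio of Foxp2 divided by that of Foxp1 was 0.90 (0.741 to 1.09), an interval that holds 1.

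Foxp4, the third FoxP factor of the tissue, was level at 2989 counts in H2AZcKO and 3099 in H2AZfl/fl, a ratio of 0.998 (0.949 to 1.05). The ratio of Foxp2 divided by that of Foxp4 was 0.762 (0.648 to 0.895), and that of Foxp1 divided by that of Foxp4 was 0.847 (0.744 to 0.963). Within the FoxP counts the composition was therefore different beyond counting error whatever the scaling. Foxp4 made up 78.6% in H2AZcKO (77.3 to 79.9) and 75.0% in H2AZfl/fl (73.6 to 76.3), and Foxp2 7.79% (6.96 to 8.69) and 9.75% (8.86 to 10.7). Foxp1 made up 13.6% (12.5 to 14.7) and 15.3% (14.2 to 16.4), whose intervals overlap. Foxp3, the FoxP factor of regulatory T cells, had 2 counts in H2AZcKO and 3 in H2AZfl/fl and lay below the level of 1 CPM.

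Among the Myt factors Myt1l was lower in H2AZcKO and Myt1 was near its control. Myt1l (ENSMUSG00000061911, chr12:29528384-29923209), which starts as neurons leave the cell cycle, had 818 counts in H2AZcKO and 1049 in H2AZfl/fl. Its 93.8 CPM against 116 CPM gave a ratio of 0.807 (0.735 to 0.885), or 1.24-fold lower. Myt1 (ENSMUSG00000010505, chr2:181763332-181827797), which is already expressed as progenitors commit to the neuronal lineage and opposes Notch targets there, had 1048 counts in H2AZcKO and 1129 in H2AZfl/fl. At 120 CPM against 125 CPM its ratio was 0.960 (0.882 to 1.05), with an interval that holds 1. The ratio of Myt1l divided by that of Myt1 was 0.840 (0.740 to 0.953), so these 2 paralogs did differ from each other beyond counting error. The third member of the family, St18, had 275 counts in H2AZcKO and 321 in H2AZfl/fl, a ratio of 0.886 (0.752 to 1.04).

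The nuclear factor I members Nfia and Nfib were both within 1.2-fold of equal. Nfia (ENSMUSG00000028565, chr4:97772734-98118874) had 2254 counts in H2AZcKO and 2192 in H2AZfl/fl, or 259 CPM against 243 CPM. Its ratio of 1.06 (1.003 to 1.13) has an interval whose lower end is almost at 1, and which holds 1 with total-count scaling, DESeq2 size factors or a 99% level. Nfib (ENSMUSG00000008575, chr4:82290173-82705750), the most abundant of the 10 in CPM, had 5557 counts in H2AZcKO and 5877 in H2AZfl/fl, a ratio of 0.978 (0.943 to 1.01). Nfib thus had an interval that holds 1, but one that lies below 1 with total-count scaling or DESeq2 size factors. Its relatives Nfix and Nfic were lower in H2AZcKO, Nfix at 5758 counts against 6548 with a ratio of 0.910 (0.878 to 0.943), and Nfic at 426 counts against 556 with a ratio of 0.793 (0.697 to 0.901). Free of scaling, Nfia took 16.1% of the counts of the 4 family genes in H2AZcKO (15.5 to 16.7) and 14.4% in H2AZfl/fl (13.9 to 15.02), and Nfix 41.1% (40.3 to 42.0) and 43.2% (42.4 to 43.9). The ratio of Nfib divided by that of Nfia was 0.920 (0.857 to 0.986).

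**Figure D2:**
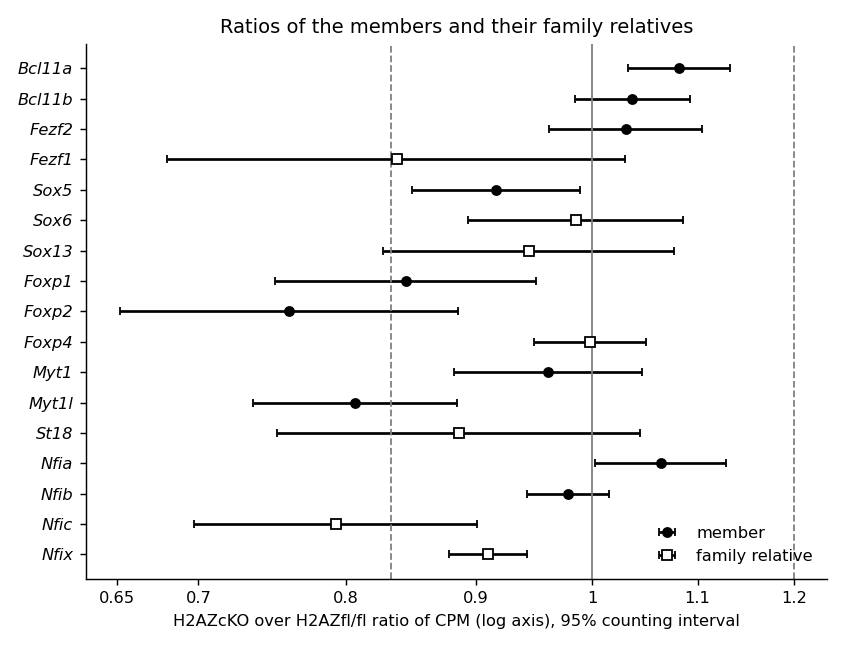
Ratio of CPM, H2AZcKO over H2AZfl/fl (log axis), with the exact 95% interval of counting error for the 10 factors (filled circles) and the 7 family relatives that reached 1 CPM (open squares), grouped by family. Dashed lines mark 1.2-fold in each direction; Foxp2 at 0.760, Myt1l at 0.807 and the relative Nfic at 0.793 lie beyond the lower one, and no gene shown lies beyond the upper one.

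Of the other deposited genes, 4 overlap one of the 10 in position. On the strand opposite Nfia, E130114P18Rik had 461 counts in H2AZcKO and 464 in H2AZfl/fl, a ratio of 1.03 (0.902 to 1.17), and opposite Nfib, Gm11266 had 374 and 369 counts, a ratio of 1.05 (0.906 to 1.21). Bcl11a overlaps 4930538E20Rik on the opposite strand, with 6 and 14 counts, and Sox5 overlaps Gm44068 on its own strand, with 6 and 2 counts. The sources used here do not say whether counting used strand, so how the reads of these overlaps were assigned is unknown.

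Seen against the background of all genes at 1 CPM or more, the 10 factors were mostly close to equal. At least 1.2-fold lower on the log2(CPM + 1) scale were 2 of the 10, Foxp2 and Myt1l, where 13.4% of all 14586 genes were, and 0 of the 10 were at least 1.2-fold higher, where 11.4% of all genes were. With libraries scaled by total count 2418 genes were lower and 1336 higher, against 1959 lower and 1665 higher with TMM, and Foxp1 joined the 2 lower factors. A share over genes of all levels includes many with few counts. Among the 6044 genes with at least as many counts over both libraries as Foxp2 (699), 3.84% were 1.2-fold lower and 4.4% 1.2-fold higher. None of the 10 reached 1.5-fold, where 3.03% of all genes were lower and 1.92% higher, or 2-fold, where 0.48% were lower and 0.151% higher. The counting interval lay below 1 for 4 of the 10 (Sox5, Foxp1, Foxp2 and Myt1l), against 11.2% of all genes and 14.6% of the 6044, and above 1 for 2 (Bcl11a and Nfia), against 12.6% and 21.2%. The median log2 ratio of the 10 was -0.04, and that of all 14586 genes was 0.01.

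**Figure D3:**
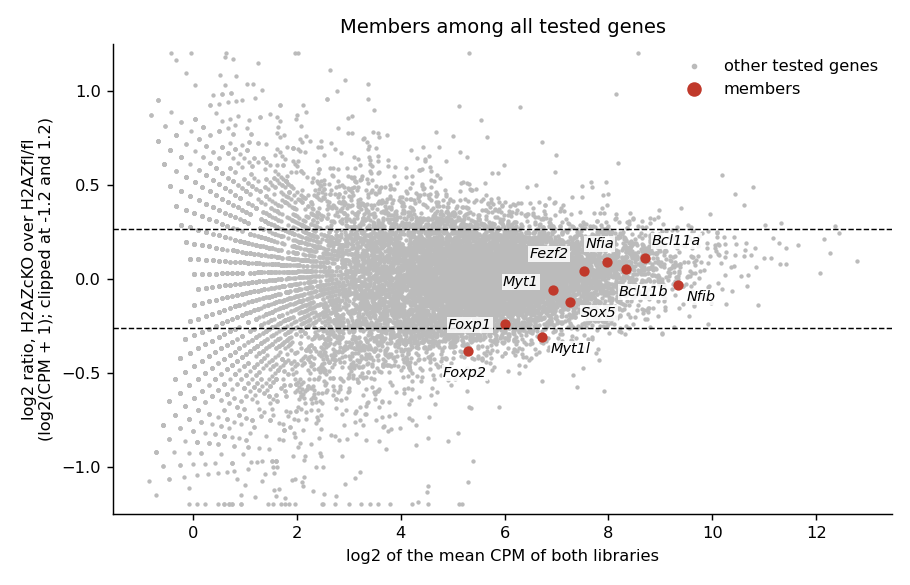
Log2 ratio, H2AZcKO over H2AZfl/fl, on the log2(CPM + 1) scale against the log2 of the mean CPM for 14586 genes (grey) and the 10 factors (red), with dashed lines at 1.2-fold; genes beyond a log2 ratio of 1.2 in either direction are drawn at that edge. Foxp1 lies just above the lower line at -0.24, and Myt1l and Foxp2 lie under it at -0.31 and -0.39.

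The authors' deposited table carries an adjusted p-value for its comparison of the 2 count columns, from an unnamed test. It compares these libraries and not the genotypes. In the authors' deposited table the adjusted p-value was under 0.05 for 4 of the 10, all lower in H2AZcKO, where 5.97% of the 19202 genes were lower and 3.57% higher at that threshold. The authors' deposited table gives an adjusted p of 8.94e-06 for Myt1l, 0.00164 for Foxp2, 0.0129 for Foxp1 and 0.0300 for Sox5. None of the 10 is marked significant in the authors' deposited table, where all 172 marked genes also differ at least 2-fold.

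The factors differ greatly in the length of genome they span, and the lower ones are among the longest. Fezf2 spans 3.97 kb, Myt1 64.5 kb, Bcl11b 93.2 kb and Bcl11a 96.1 kb, while Nfia spans 346 kb, Myt1l 395 kb, Nfib 416 kb, Foxp2 541 kb, Foxp1 597 kb and Sox5 954 kb. The 4 factors with an interval below 1 are thus 4 of the 6 over 300 kb, and none of the 4 shorter factors is among them. The interval lay below 1 for 89 of all 484 tested genes over 300 kb and for 561 of the 3910 of 30 to 100 kb. Over all tested genes the median log2 ratio was 0.05 for 4171 genes under 10 kb, 0.02 for 4408 of 10 to 30 kb, -0.02 for 3910 of 30 to 100 kb, -0.05 for 1613 of 100 to 300 kb and -0.05 for 484 over 300 kb. At least 1.2-fold lower were 18.8% of the genes over 300 kb and at least 1.2-fold higher 8.06%. The ratios of Sox5, Foxp1, Myt1l and Foxp2 lie below that class's median, those of Nfia and Nfib above it. The span classes were chosen after seeing the data. With a joint trend on transcript length, GC content, level and span removed, the log2 ratios were -0.33 for Foxp2, -0.26 for Myt1l, -0.18 for Foxp1 and -0.08 for Sox5, and 2 factors stayed at least 1.2-fold lower. With the trend on length, GC content and level alone, Myt1l fell short of 1.2-fold.

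**Figure D4:**
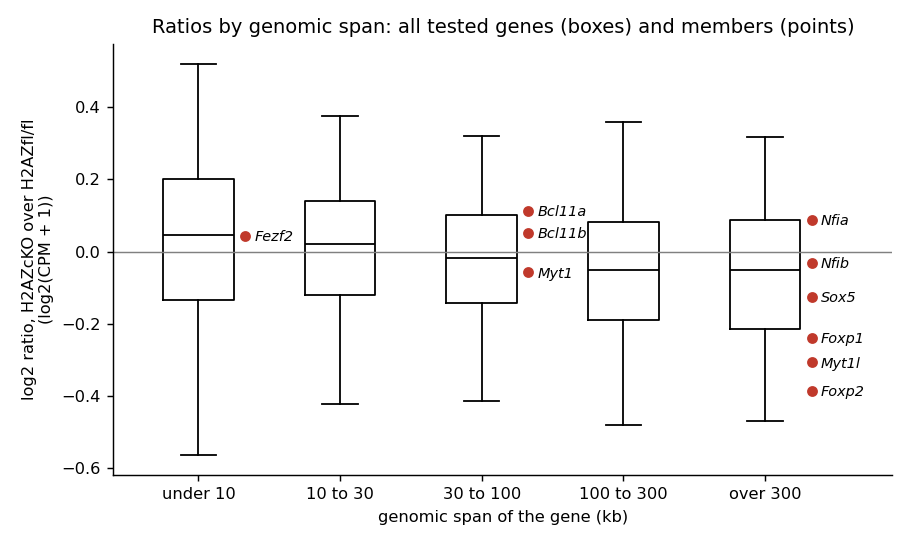
Log2 ratio, H2AZcKO over H2AZfl/fl, on the log2(CPM + 1) scale by genomic span in kb: boxes give the median and quartiles of all tested genes in each class, whiskers the 5th and 95th percentiles, and red points the 10 factors. The 6 factors over 300 kb spread from -0.39 for Foxp2 to 0.09 for Nfia, around a class median of -0.05.

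Other genes of neuronal identity were set beside the 10 factors. Of 15 genes of deep-layer and early glutamatergic neurons, none was 1.2-fold lower or higher (0 each), and the median log2 ratio was 0.03. In that list Lmo4 and Lmo3, LIM-only cofactors, were at 1.18 (1.09 to 1.28) and 1.17 (1.07 to 1.27), Pcp4, a calmodulin-binding protein, at 1.18 (0.862 to 1.61) and Neurod6, a bHLH factor of cortical neurons, at 1.105 (1.06 to 1.15). Of 11 tested upper-layer neuron genes 2 were 1.2-fold lower, where 13.4% of all genes were. These 2 were also those with intervals below 1, against 11.2% of all genes. They were Mdga1, a cell surface protein, at 0.787 (0.724 to 0.855) and the netrin receptor Unc5d at 0.794 (0.670 to 0.9396). The POU factors Pou3f1, at 1.204 (1.06 to 1.36), and Pou3f3, at 1.11 (1.07 to 1.15), were higher, and the list's median was 0.02.

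Genes that work with the factors or are opposed by them were mixed. Among 18 genes of corepressor complexes (NuRD, Sin3, CtBP, Groucho and the demethylase Kdm1a) the median log2 ratio was 0.06. Of the 18, 1 was 1.2-fold lower, against 13.4% of all genes: the NuRD subunit Gatad2b at 0.816 (0.751 to 0.885). The deacetylase Hdac2 stood at 1.16 (1.12 to 1.21), the histone-binding subunit Rbbp4 at 1.12 (1.06 to 1.18) and Ctbp1 at 1.101 (1.05 to 1.15). Of 9 Notch and proneural genes the median was 0.15 on the log2 scale, 8 were above 0 and 3 were at least 1.2-fold higher. Of all 14586 tested genes, 7443 were above 0 and 11.4% at least 1.2-fold higher. The 8 genes above 0 each span under 10 kb, a class where 2404 of 4171 tested genes were above 0 and 18.1% at least 1.2-fold higher. Hes5, a Notch effector, had a ratio of 1.62 (1.37 to 1.91) and its relative Hes1 one of 1.34 (1.16 to 1.54). The receptor Notch1 was lower, at 0.793 (0.735 to 0.855). The 7 tested family relatives of the factors were all below 0 on the log2 scale, where 7143 of all 14586 tested genes were. Their median was -0.14, with Foxp4 and Sox6 almost at 0 (-0.003 and -0.02). Of the 7, Nfix and Nfic had intervals below 1. The other 5 had intervals that hold 1, Fezf1, the paralog of Fezf2, among them at 0.837 (0.680 to 1.03).

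Markers of the cells in the tissue were checked in the same way. The 7 telencephalon markers were all detected, with summed levels of 1966 CPM in H2AZcKO and 1840 CPM in H2AZfl/fl and a median log2 ratio of 0.09, Dmrta2 at 1.27 and Emx1 at 1.15 being farthest from 1. Summed levels were 2761 and 2521 CPM for the 8 apical progenitor markers and 5909 and 5816 CPM for the 8 neuron markers, of which 0 were 1.2-fold lower. Vim, of radial glia, had a ratio of 1.12. Of the 8 neuron markers 3 had intervals below 1: Map2 at 0.905 (0.875 to 0.935), Dcx at 0.927 (0.896 to 0.959) and Elavl4 at 0.926 (0.864 to 0.991). Above 1 were those of 2, Gap43 at 1.14 (1.08 to 1.19) and Tubb3 at 1.08 (1.06 to 1.101). Tubb3 alone held 2336 against 2165 CPM. Of all genes, 11.2% had an interval below 1 and 12.6% above. Foxp1, Foxp2 and Bcl11b are also genes of the striatal primordium. The 17 markers listed for the striatum and lateral ganglionic eminence summed to 2076 CPM in H2AZcKO and 1858 CPM in H2AZfl/fl. They include Dlx and Gad genes, which are not confined to striatal cells, so the sum is not a measure of the striatal primordium alone. Dlx1 alone held 555 against 441 CPM and Dlx2 273 against 226 CPM. Of the 17, 4 were 1.2-fold higher, led by Gsx2 at 1.43 and Dlx5 at 1.30, against 11.4% of all genes. Isl1 was the 1 lower, at 0.808 (0.715 to 0.912), where 13.4% of all genes were. Ebf1 at 0.948, Six3 at 0.892 and Meis2 at 1.02 had intervals that hold 1. On the log2 scale 13 of the 17 were above 0 and 4 below. The 5 markers of the medial ganglionic eminence were all 1.2-fold higher, where 11.4% of all genes were. They summed to 476 against 305 CPM, with Lhx8 at 1.93 and Sst at 1.67. Of the diencephalon and hypothalamus, whose thalamic neurons also express Foxp2, 14 of 16 tested markers were 1.2-fold lower, against 13.4% of all genes. All 18 listed markers summed to 119 CPM in H2AZcKO and 217 CPM in H2AZfl/fl. The median log2 ratio of the tested ones was -0.85 with the pseudocount of 1 CPM, -1.249 with 0.1 CPM and -0.39 with 5 CPM. Nkx2-2 had 5 counts against 44. Nkx2-4 had 0 counts in H2AZcKO, which allows up to 3, against 25 in H2AZfl/fl, and Rax was also at 0 in H2AZcKO.

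Among other cell types, the 7 Cajal-Retzius cell markers summed to 294 CPM in H2AZcKO and 336 CPM in H2AZfl/fl. Of the 7, 3 were 1.2-fold lower, Lhx1 at 0.669 and Lhx5 at 0.685 among them, where 13.4% of all genes were. Reln, at 178 against 203 CPM, had a ratio of 0.879 (0.821 to 0.941). Trp73 at 1.01, Ebf2 at 1.02 and Calb2 at 1.03 were close to equal. The 9 erythroid markers summed to 691 and 364 CPM, Hbb-bh1 at 2.76 and Hbb-y at 1.99 leading. The 12 microglia and macrophage markers summed to 55.2 and 38.5 CPM. Farthest from 1 were Lyz2 at 3.29 (1.88 to 6.05), with 54 counts against 17, and Tyrobp at 2.73 (1.32 to 6.05), with 29 against 11. Of the 11 tested, 4 had an interval above 1 and 0 below. Cx3cr1 and Aif1 were both at 1.03, and C1qb was at 0.891 (0.612 to 1.29). The 10 endothelial markers summed to 135 and 144 CPM. Farthest from 1 were Erg at 0.562 (0.303 to 1.009) and Tek at 0.8003 (0.519 to 1.23), and 0 of the 10 had an interval below 1. The 9 meningeal and mesenchymal markers in the table summed to 55.4 and 59.4 CPM. Dcn, at 0.362 (0.129 to 0.891), had 7 counts against 20, and Col1a2, at 0.718 (0.413 to 1.23), had 25 against 36. Of the 8 tested, 5 were below 0 on the log2 scale and 3 above, among them Prrx1 at 1.19 (0.953 to 1.48). Other than Nkx2-4 and Rax no listed marker in the table was at 0 in either library. For the lower Sox5, Foxp1, Foxp2 and Myt1l, the part of these markers' cells in the result was not tested.

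**Figure D5:**
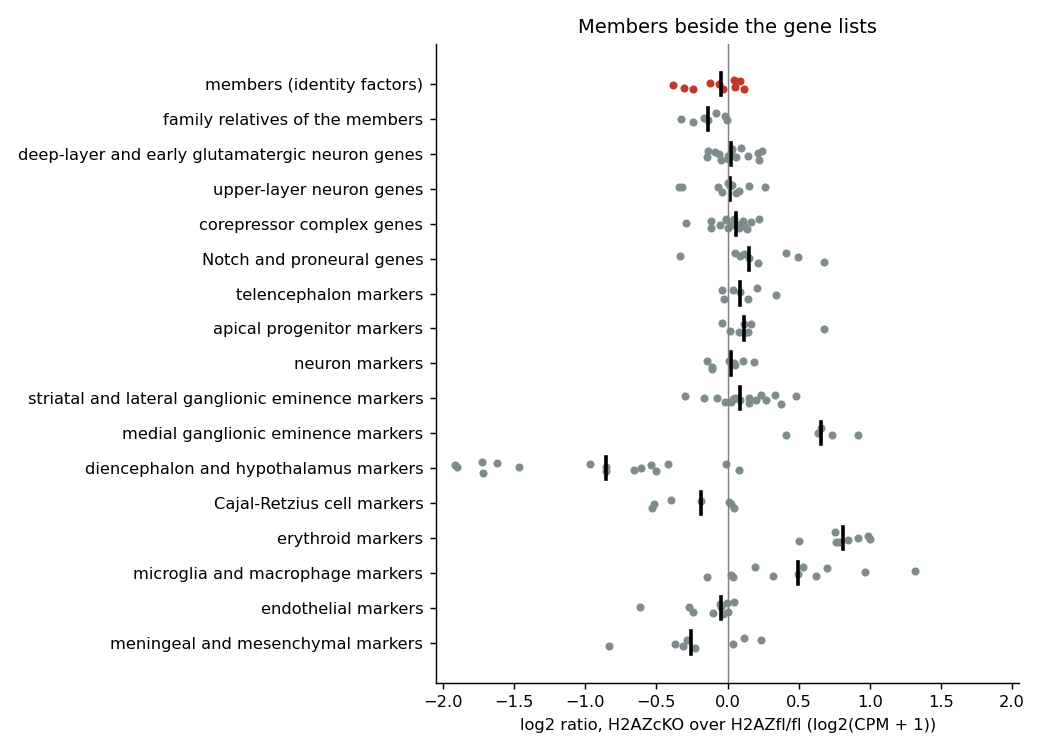
Log2 ratio, H2AZcKO over H2AZfl/fl, on the log2(CPM + 1) scale for each tested gene (points, spread vertically for visibility) of the 10 factors (red) and of the other lists (grey), with black bars at the list medians. The factors lie between -0.39 and 0.11, while diencephalon markers have a median of -0.85 at the pseudocount of 1 CPM and erythroid markers one of 0.81.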

How the data were processed

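Total RNA libraries were made with an Illumina TruSeq RNA kit from Trizol extracts, per the labels' protocols. The submitters' processing notes name Bowtie2 2.2.3, TopHat2 2.0.12, HTSeq 0.6.0 and mm9, with no roles. The positions of the genes fit GRCm38, not that build: of 19119 identifiers found in GENCODE M21, 79.1% have identical positions. The counts deposited by the authors are whole reads per Ensembl gene, 1 column per genotype, with no filter stated. The control column is headed WT and was taken as H2AZfl/fl, the only other genotype. The authors' CPM columns are these counts times a constant (a count of 0 excepted), the authors' fold (ratio) and log2 fold change derive from them, and the authors' p-value comes from an unnamed test.

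Here the counts were scaled with TMM factors of 0.986 (H2AZcKO) and 1.01 (H2AZfl/fl) from edgeR 4.0.16 in R 4.3.3. Genes reaching 1 CPM in the higher library were kept, and the pseudocount was 1 CPM. Ratio intervals are exact Clopper-Pearson, those of paired ratios exact conditional odds ratios, all at 95%. They leave out all but counting error, and PCR copies, not marked by molecular identifiers, can make even that too small. Genes are counted as lower or higher at 1.2-fold, with no test. Where no size is given, a named gene called lower or higher has a counting interval that leaves out 1. The steps were tested on simulated data. Python 3.11.15, scipy 1.17.1 and DESeq2 1.42.0 (size factors) were also used.

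The 10 genes, the other lists and the sizes were chosen with earlier results of these data known. Named are the 10 genes, their overlapping genes and relatives, H2afz and markers at 0. Also named are up to 4 genes of each pathway list and up to 2 of each marker list, by size of the log2 ratio. H2afv and the sex-linked genes were added as checks. Further genes of some marker lists were added to show members nearer to equal or going the other way. One gene that the rule names and the sequences of 1 pair of paralogs are not reported here. Alternatives were pseudocounts of 0.1 and 5 CPM, no floor and one of 5 CPM, scaling by total count or DESeq2 size factors, sizes of 1.5-fold and 2-fold, a 99% interval, protein-coding genes only, no X and Y chromosomes, and removal of a joint trend on transcript length, GC content and level. Chosen after seeing the data were the trend with genomic span added, the span classes and the background of genes with at least 699 counts.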

Additional observations from a re-analysis of the deposited data

How the results depend on the processing

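With 1 library per genotype, depth limits only the counting error: the 10 factors had 296 to 5877 counts per library. No paired analysis was possible because each genotype has 1 column of counts. Over its 8 alternatives the median log2 ratio of the 10 factors ran from -0.09 to -0.04, and 0 of the 10 were 1.2-fold higher under any alternative run. Total-count scaling moved the median of all genes to -0.03 and DESeq2 size factors to -0.02, and every factor with it. The log2 ratio of Foxp2 ran from -0.43 to -0.33, that of Myt1l from -0.35 to -0.26, that of Foxp1 from -0.28 to -0.18 and that of Sox5 from -0.17 to -0.08. Fezf2 changed sign, from 0.04 as reported to -0.03 once the trend on length, GC content and level was removed. Factors at least 1.2-fold lower were 3 with total-count scaling, 1 (Foxp2) with that trend removed, 2 with genomic span added to it, and 0 at 1.5-fold and at 2-fold. The factors with an interval above 1 numbered 1 (Bcl11a) with total-count scaling, with DESeq2 size factors and with a 99% interval, and those below 1 numbered 5, 5 and 3. Nfib was the factor added under both scalings, and Sox5 the one that dropped out with the 99% interval. Removing the trend moved the median of the telencephalon markers to -0.01, of the neuron markers to -0.07, of the apical progenitor markers to 0.02 and of the Cajal-Retzius cell markers to -0.08; the cause was not tested. All genes at least 1.2-fold lower and higher numbered 921 and 780 with a pseudocount of 5 CPM, 1087 and 966 with a floor of 5 CPM, and, chosen after seeing the data, 232 and 266 among genes with at least 699 counts. At 1.5-fold the lower and higher genes were 442 and 280, and at 2-fold 70 and 22.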
